A study of Mus musculus with 14 samples.

Results

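The genes described here are 9 genes of the interferon pathway, followed in ribosome profiling and RNA-seq of mouse embryonic fibroblasts: the transcription factors Stat2, Irf9, Irf1 and Irf7, the interferon-stimulated genes Isg15, Ifit1, Ifit3 and Bst2, and B2m of MHC class I. They were chosen by symbol, matched through the transcript identifiers of the files to GENCODE M21, with the transcript of the highest mean RPKM (reads scaled for transcript length and library depth) kept for each gene. They are 9 of 14248 genes listed in the 14 libraries. Ribosome profiling (Ribo-seq) reads the mRNA fragments covered by ribosomes, RNA-seq reads fragments of all mRNA, and the ratio of both is used as translational efficiency (TE).

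The cells were embryonic fibroblasts of strain C57BL/6J, lysed in cycloheximide at 100 µg/ml, which holds ribosomes in place. The 4 groups were a scrambled control (Scram), knockdown of METTL3, knockdown of ABCF1, and Torin1 at 250 nM for 2 h. In each assay Scram and both knockdowns were sequenced in 2 replicates and Torin1 in 1 library. METTL3 is the enzyme that places N6-methyladenosine on mRNA, ABCF1 is a ribosome-associated ATPase that is also known as a factor in the response to cytosolic DNA, and Torin1 inhibits the kinase mTOR. A vehicle (DMSO) is named in the protocol, but not which libraries received it. The titles shMETTL3 and shABCF1 mark knockdown by short hairpin RNA, and do not say how it was delivered. No label names interferon or an infection as a treatment. Nothing says that replicates came from separate cultures, so each p reflects spread among libraries that may be technical. Unless a replicate block is named, that spread also holds the difference between replicates 1 and 2 that the groups share.

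Type I interferon binds a receptor whose kinases JAK1 and TYK2 phosphorylate STAT2. STAT2 and IRF9 are subunits of ISGF3, a complex that binds the interferon-stimulated response element in front of its target genes. IRF7 is induced by this route and amplifies interferon production, and translation of its mRNA is known to be restrained by the 4E-BP proteins that mTOR controls. In fibroblasts a low tonic signal keeps some of these genes on without infection.

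RNA-seq libraries held 1197860 to 3802703 reads and Ribo-seq libraries 1764404 to 5155237, as implied by the smallest step of the RPKM values. Replicate 1 files listed transcripts down to 1 read, while the replicate 2 and Torin1 files began at 4 or 5 reads and listed close to 1 transcript per gene. Libraries followed this split: log2 levels correlated at 0.862 to 0.970 within a set and 0.578 to 0.667 between sets in RNA-seq, and at 0.925 to 0.978 and 0.652 to 0.708 in Ribo-seq, across genes, which are not independent replicates. Each knockdown is therefore set against Scram of the same replicate, and Torin1 against Scram replicate 2, whose listing it shares. Mettl3 in its knockdown was at 29.0% and 77.8% of Scram in RNA-seq and 12.3% and 38.7% in Ribo-seq, and the interval of the 77.8% value, from 9 reads in the knockdown, includes no difference. Abcf1 in its knockdown was at 29.3% and 47.8%, and 34.2% and 50.6%. Of 12 fibroblast markers 11 were listed, 8 of them in every RNA-seq library, with summed RNA-seq levels of 2236 to 4007 scaled RPKM. Pdgfra, Pdgfrb and Fbn1 were listed in replicate 1 alone, so the replicates sum different genes. Of 6 lymphocyte markers 0 were listed in RNA-seq. The RNA-seq sums were 0 to 5.01 for 12 myeloid markers and 30.5 to 63.5 for 5 epithelial ones, nearly all of it Krt18. Epcam and Cldn4 were not listed in RNA-seq. In Ribo-seq the sums were 5162 to 10135 for fibroblast, 0 to 0.901 for lymphocyte (Nkg7 in 1 library), 5.30 to 26.6 for myeloid and 61.5 to 246.4 for epithelial markers. In bulk libraries fewer cells of a type and less RNA per cell cannot be told apart.

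The promoters are shown because the members include interferon-stimulated genes, and the letters of the response element can be looked for in them. All 9 genes had a RefSeq start (GRCm38.p6), and the 250 bases before it were searched on both strands for the core of the interferon-stimulated response element, which is GAAA, any 2 bases and GAAA again, and for TTCNNNGAA, the gamma-activated sequence of genes that respond to interferon gamma. The core was found in 6 of 9 windows (Stat2, Isg15, Ifit1, Ifit3, Bst2 and B2m), while 2.98% of 32851 RefSeq windows of this length hold it. It was not found in those of Irf9, Irf1 and Irf7. Where RefSeq gave more than 1 start, the one closest to the kept transcript was used. The second motif was found in Irf1 and Bst2, and in 7.02% of all windows. Below are 4 of the windows, 5′ to 3′ on the strand of the gene and ending at the base before the start, with the core or its reverse complement in capitals: Isg15 (chr4:156200819-156201068, minus strand), Ifit1 (chr19:34640639-34640888, plus strand), Bst2 (chr8:71537473-71537722, minus strand) and B2m (chr2:122147437-122147686, plus strand).

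Isg15: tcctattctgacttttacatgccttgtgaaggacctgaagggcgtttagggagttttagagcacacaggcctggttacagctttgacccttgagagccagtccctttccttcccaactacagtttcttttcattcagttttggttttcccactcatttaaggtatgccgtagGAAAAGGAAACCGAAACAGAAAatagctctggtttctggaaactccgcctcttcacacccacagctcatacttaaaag

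Ifit1: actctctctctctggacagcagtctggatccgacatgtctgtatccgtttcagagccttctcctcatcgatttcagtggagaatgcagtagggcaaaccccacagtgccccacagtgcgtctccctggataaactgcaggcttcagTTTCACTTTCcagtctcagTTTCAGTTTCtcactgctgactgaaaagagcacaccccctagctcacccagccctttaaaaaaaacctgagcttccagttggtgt

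Bst2: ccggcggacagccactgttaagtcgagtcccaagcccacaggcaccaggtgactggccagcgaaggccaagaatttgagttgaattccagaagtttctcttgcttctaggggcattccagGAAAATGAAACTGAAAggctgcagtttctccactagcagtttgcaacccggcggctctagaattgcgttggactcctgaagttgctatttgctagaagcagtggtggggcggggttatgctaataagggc

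B2m: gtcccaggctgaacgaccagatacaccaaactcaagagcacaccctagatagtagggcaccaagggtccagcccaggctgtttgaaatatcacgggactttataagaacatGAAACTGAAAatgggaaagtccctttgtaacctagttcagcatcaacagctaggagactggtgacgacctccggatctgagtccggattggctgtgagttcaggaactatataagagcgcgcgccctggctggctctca

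Isg15 carried 3 overlapping cores between bases 78 and 57 before its start, and Bst2 carried 2 between bases 130 and 115, overlapped by its gamma-activated sequence. Ifit1 had 2 separate cores and B2m 1. A match describes the letters and is not a measured binding site.

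**Figure D1:**
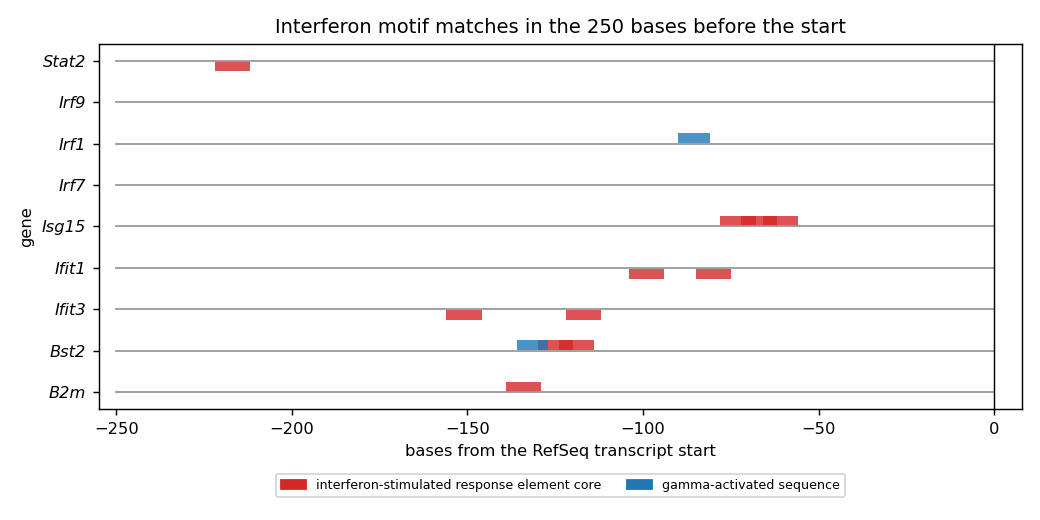
Matches of the interferon-stimulated response element core (red) and the gamma-activated sequence (blue) along the 250 bases before the RefSeq start of each gene, with the horizontal axis in bases from the start and each gene on 1 row (above the line, strand of the gene; below, the other strand). The core lies in 6 of 9 windows and is not in those of Irf9, Irf1 and Irf7.

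The 9 genes covered a wide range of levels in the Scram control. In Scram Ribo-seq, B2m had 2067 and 1831 scaled RPKM in replicates 1 and 2, above Bst2 with 78.5 and 80.8, Irf1 with 58.0 and 33.4, and Isg15 with 14.6 and 30.6. Below these came Irf9 with 6.46 and 1.54 (summed over its transcripts), then Stat2 with 0.620 and 1.82, whose ranges overlap, then Irf7. The ranges of Bst2, Irf1 and Isg15 did not overlap. Irf1, Bst2 and B2m, but none of the others, were listed in all 14 libraries under the kept transcript. Tests covered genes present in 0.5 or more of the libraries of a fit with a mean of at least 1 RPKM, which 5 of 9 members passed (Stat2, Irf1, Isg15, Bst2 and B2m), so that what follows on tests says nothing of the other 4.

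**Figure D2:**
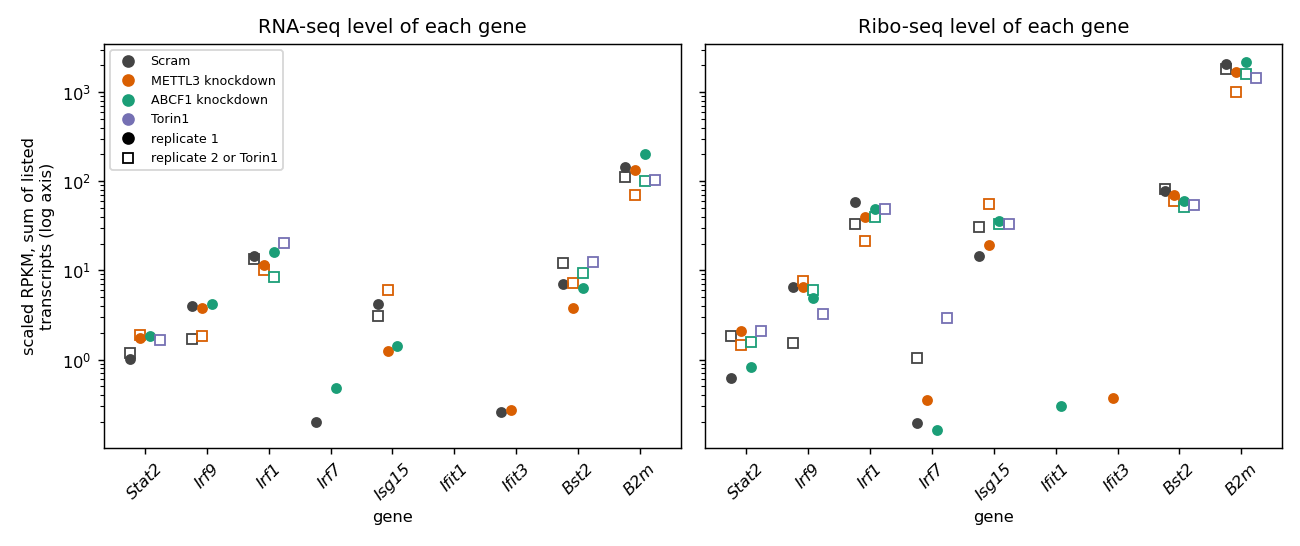
Level of each gene in RNA-seq (left) and Ribo-seq (right) as scaled RPKM summed over its listed transcripts, on a log axis; each point is 1 library, coloured by group, filled for replicate 1 and open for replicate 2 or Torin1, and a missing point is a library that does not list the gene. B2m lies above the other genes in every library, and Irf7, Ifit1 and Ifit3 have few points.

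Ribosome coverage relative to mRNA also differed between members. In Scram the Ribo-seq over RNA-seq ratio of B2m was 14.4 and 16.6, above 93.3% and 98.6% of the tested genes with a ratio (8608 and 9104 genes). Bst2, with ratios of 11.2 and 6.60, was above 90.0% and 87.2% of them. Irf1 lay near the middle, with ratios of 4.14 and 2.47 and percentiles of 61.8 and 45.3. Stat2 lay low, at percentiles 8.21 and 25.7, on 7 to 21 reads per library. Isg15 had 56.5 and 95.1, so its place was not held between replicates, and its RNA-seq values rest on 7 and 8 reads. Ribo-seq values are per coding length and RNA-seq values per transcript length, and B2m and Bst2 have short coding sequences of 360 and 519 bases with the stop codon; what these lengths add to the ratios was not tested.

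**Figure D3:**
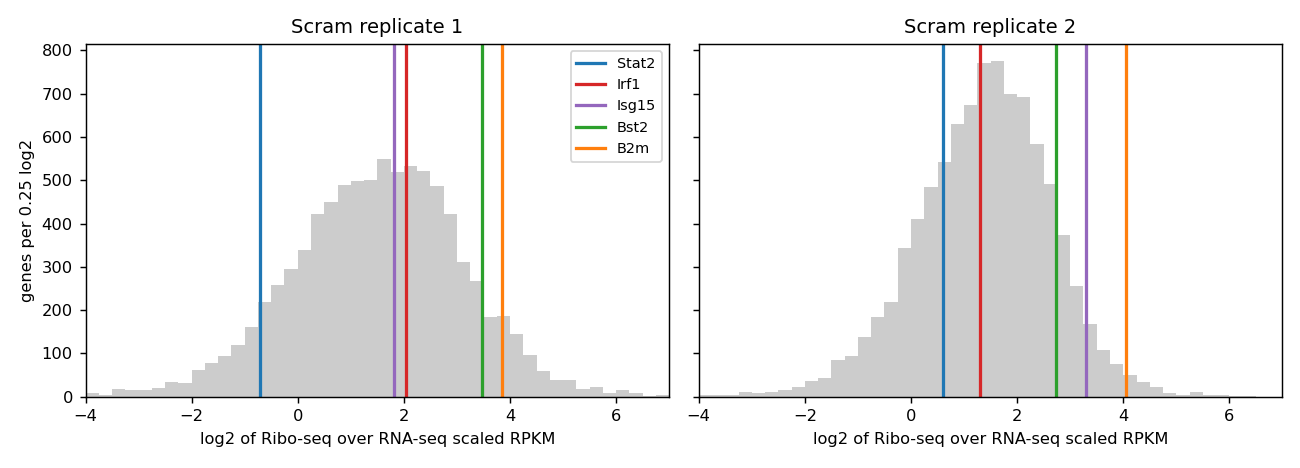
Distribution over tested genes of the log2 ratio of Ribo-seq to RNA-seq scaled RPKM in Scram replicates 1 and 2 (grey bars, genes per bin), with the 5 tested members as coloured lines. B2m and Bst2 lie to the right of most genes in both replicates (93.3% and 98.6%, and 90.0% and 87.2%), and Isg15 lies above 56.5% of genes in replicate 1 and 95.1% in replicate 2.

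Group differences were tested with limma on log2(scaled RPKM + 1) over all tested genes, called at a Benjamini-Hochberg adjusted p under 0.05. For METTL3 knockdown 0 of the 5 members passed in RNA-seq, Ribo-seq or TE, where 0.0% of 9021, 9534 and 9428 genes passed. For ABCF1 knockdown it was again 0 of 5 in each, against 0.0% of all genes. For Torin1, whose lone library per assay is assumed to vary like the other groups, it was 0 of 5 in each, against 0.0%. At an unadjusted p below 0.05 there were 0 members in any of the 9 comparisons. Of all genes, 0.698%, 2.55% and 0.488% had one for METTL3 (RNA-seq, Ribo-seq, TE), 0.876%, 1.11% and 0.392% for ABCF1, and 2.25%, 3.19% and 2.68% for Torin1. With the replicate number as a block, and Torin1, whose labels carry no number, placed with replicate 2 for its listing minimum, limma again called 0 members, against 0.0105% of all genes for METTL3 in Ribo-seq, 0.111%, 1.32% and 0.552% for Torin1 in RNA-seq, Ribo-seq and TE, and 0.0% in the other comparisons. In that fit an unadjusted p below 0.05 was found for Bst2 in METTL3 RNA-seq (4.28% of all genes), for Irf1 and B2m in METTL3 Ribo-seq (13.2%), for Bst2 in ABCF1 Ribo-seq (7.6%) and for Isg15 in ABCF1 TE (3.69%). It was found for 0 members in METTL3 TE (4.01%), ABCF1 RNA-seq (6.5%) and Torin1 RNA-seq, Ribo-seq and TE (5.49%, 13.2% and 8.57%). The values below are therefore descriptions of these libraries. Each ratio to Scram carries an exact 95% binomial interval from the reads behind it, which covers counting error only. Such intervals lay apart from 1 for 12.3% to 50.7% of all tested genes, depending on the pair of libraries, so an interval without 1 is common and is not a call. In Ribo-seq of METTL3 knockdown 3 of 5 and 4 of 5 members had one, where 43.5% and 45.1% of all genes did. In that of ABCF1 knockdown 2 of 5 members had one in each replicate, where 50.7% and 37.4% did, and with Torin1 3 of 5 did, against 41.5%. In RNA-seq it was 0 of 5 and 1 of 5 for METTL3 (25.6% and 19.4%), 1 of 5 and 0 of 3 for ABCF1 (34.7% and 22.1%) and 1 of 4 for Torin1 (12.3%).

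**Figure D4:**
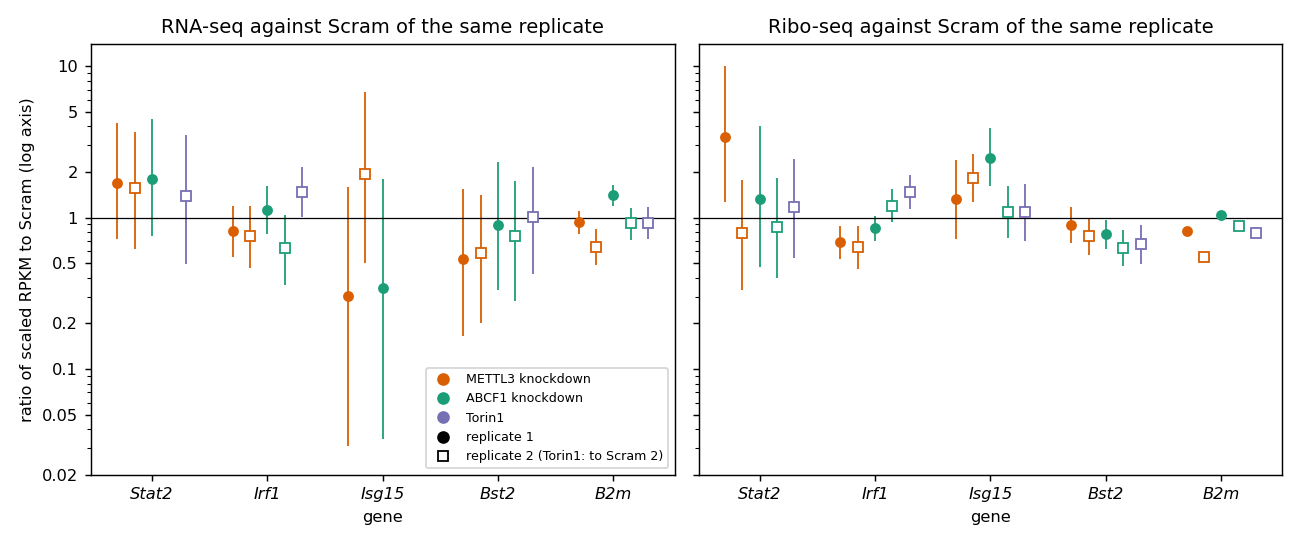
Ratio of scaled RPKM to Scram of the same replicate for the 5 tested members in RNA-seq (left) and Ribo-seq (right), on a log axis; filled circles are replicate 1, open squares replicate 2 and Torin1 (against Scram 2), and bars are exact 95% counting intervals. Both Irf1 points of METTL3 knockdown in Ribo-seq lie below 1 (0.69 and 0.64), and all 5 Bst2 points in Ribo-seq lie below 1.

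Irf1 (chromosome 11, 53770014 to 53777323, plus strand) encodes a transcription factor that is induced by interferon gamma and drives antiviral and antigen presentation genes. Its Ribo-seq level was 58.0 and 33.4 scaled RPKM in Scram, 39.9 and 21.3 in METTL3 knockdown, 49.2 and 40.0 in ABCF1 knockdown and 49.2 with Torin1. METTL3 knockdown was the lower of the pair in both replicates, while the ranges of the groups overlapped. The ratios to Scram were 0.69 (0.53 to 0.88) and 0.64 (0.46 to 0.88), with a limma log2 change of -0.58 (SE 0.46, adjusted p = 1), which was -0.19 without Scram replicate 1 and -1.02 without METTL3 replicate 1. Its RNA-seq level was 14.03 and 13.5 in Scram, 11.4 and 10.2 in METTL3 knockdown, 15.7 and 8.50 in ABCF1 knockdown and 20.1 with Torin1. The METTL3 values of both assays lay below Scram, and the TE change was -0.25 in each replicate. Torin1 was higher than Scram replicate 2, with an RNA-seq ratio of 1.48 (1.00 to 2.15) and a Ribo-seq ratio of 1.47 (1.14 to 1.91), so that its TE change against that library was 0.01. Against both Scram libraries the Torin1 change in Ribo-seq was 0.16 (SE 0.57, limma adjusted p = 0.94). Without scaling the RNA-seq ratio was 1.31 (0.89 to 1.91) and the Ribo-seq ratio 1.71 (1.32 to 2.22). With ABCF1 knockdown the ratios pointed in opposite directions in the replicates, 1.12 and 0.63 in RNA-seq and 0.85 and 1.198 in Ribo-seq. Without scaling the RNA-seq ratio of replicate 2 was 0.50 (0.28 to 0.82).

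Stat2 (chromosome 10, 128270576 to 128292849, plus strand), which brings the activation domain to ISGF3, was listed at low levels. In RNA-seq it had 1.02 and 1.196 scaled RPKM in Scram, 1.73 and 1.86 in METTL3 knockdown, 1.82 in ABCF1 replicate 1 and 1.67 with Torin1. ABCF1 replicate 2 did not list it, and 5 reads there would be worth 1.15. In Ribo-seq it had 0.620 and 1.82 in Scram, 2.11 and 1.44 in METTL3 knockdown, 0.822 and 1.58 in ABCF1 knockdown and 2.12 with Torin1. The RNA-seq values of METTL3 knockdown lay above both Scram values, but with 9 to 18 reads the intervals of both ratios held 1 (0.73 to 4.198 and 0.62 to 3.65). In Ribo-seq the METTL3 ratio was 3.40 (1.26 to 10.1, 7 and 13 reads) in replicate 1 and 0.79 in replicate 2.

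Irf9 and Irf7, the other members of the factor group, could not be compared across all libraries. Irf9 (chromosome 14, 55604579 to 55610030, plus strand), the DNA-binding subunit of ISGF3, was listed under the kept transcript in replicate 1 alone. In Ribo-seq, replicate 2 and Torin1 listed another transcript, and in RNA-seq ABCF1 replicate 2 and Torin1 listed none. Summed over transcripts, its Ribo-seq level was 6.46 and 1.54 in Scram, 6.44 and 7.70 in METTL3 knockdown, 4.96 and 6.01 in ABCF1 knockdown and 3.23 with Torin1. Scram replicate 2 was the low library, with 9 reads against 27 and 25 in both knockdowns of that replicate, and in replicate 1 the 3 groups were close. Irf7 (chromosome 7, 141263183 to 141266481, minus strand) had 1.05 in Scram replicate 2 (6 reads) and 2.96 with Torin1 (9 reads) in Ribo-seq. That ratio of 2.83 had an interval of 0.90 to 9.65, and 1.04 to 11.2 without scaling. Neither matched RNA-seq library listed Irf7, where 5 reads would be worth 0.763 and 2.73, so a TE for the gene whose translation depends on 4E-BPs was not detectable at this depth. In replicate 1 its other transcript had 1 or 2 reads in each library except METTL3 RNA-seq, which listed none.

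Bst2 (chromosome 8, 71534255 to 71537456, minus strand) encodes tetherin, which holds budding virions at the cell surface. Its Ribo-seq level was 78.5 and 80.8 scaled RPKM in Scram, 70.1 and 60.7 in METTL3 knockdown, 60.7 and 51.1 in ABCF1 knockdown and 53.9 with Torin1. Both Scram libraries lay above the 5 other libraries on this scale, while in deposited RPKM Torin1 (67.7) lay above Scram replicate 1 (66.9). The ABCF1 ratios were 0.77 (0.62 to 0.97) and 0.63 (0.48 to 0.83), with a limma log2 change of -0.51 (SE 0.26, adjusted p = 1; -0.31 without Scram replicate 2), and the Torin1 ratio was 0.67 (0.49 to 0.90). Without scaling the ABCF1 ratio of replicate 1 was 0.85 (0.68 to 1.06) and that of Torin1 0.77 (0.57 to 1.04). In RNA-seq it had 7.03 and 12.2 in Scram, 3.74 and 7.14 in METTL3 knockdown, 6.29 and 9.25 in ABCF1 knockdown and 12.3 with Torin1. The METTL3 libraries were the lowest of their set, with ratios of 0.53 and 0.58 whose intervals held 1, and a change of -0.73 (SE 0.47, limma adjusted p = 1), which was -0.25 without Scram replicate 2 and -1.24 without METTL3 replicate 2. With Torin1 the RNA-seq ratio to Scram replicate 2 was 1.01, and 0.89 without scaling.

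Isg15 (chromosome 4, 156199424 to 156200818, minus strand) encodes a ubiquitin-like protein that is joined to other proteins during the antiviral response. Its Ribo-seq level was 14.6 and 30.6 scaled RPKM in Scram, 19.4 and 55.8 in METTL3 knockdown, 36.2 and 33.2 in ABCF1 knockdown and 33.4 with Torin1. The treated libraries all lay above Scram of their replicate, and the group ranges overlapped for METTL3 but not for ABCF1 knockdown. The METTL3 ratios were 1.32 (0.72 to 2.40) and 1.82 (1.27 to 2.62), and those of ABCF1 knockdown 2.47 (1.61 to 3.91) and 1.09 (0.73 to 1.61). The limma log2 changes were 0.61 (SE 0.64) and 0.68 (SE 0.64), both with adjusted p = 1. For METTL3 the change was -0.30 without METTL3 replicate 2 and 1.35 without METTL3 replicate 1, and for ABCF1 it was 0.17 and 1.36 without Scram replicates 1 and 2. In RNA-seq Isg15 had 4.14 and 3.09 in Scram, 1.26 and 6.01 in METTL3 knockdown and 1.41 in ABCF1 replicate 1, on 2 to 8 reads. ABCF1 replicate 2 and Torin1 did not list it, but 5 reads there would be worth 6.68 and 6.92, more than the Scram level. The fitted TE changes of 2.25 (SE 1.05) for ABCF1 and 2.85 (SE 1.28) for Torin1 take those libraries as 0 and are no measured fold.

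Ifit1 (chromosome 19, 34640871 to 34650009, plus strand), whose protein binds foreign RNA, and Ifit3 (chromosome 19, 34583531 to 34588731, plus strand) were close to the limit of listing. Ifit1 had 2 reads in ABCF1 replicate 1 in Ribo-seq (0.298 scaled RPKM), and no other library listed it. Ifit3 had 1 read each in Scram and METTL3 replicate 1 in RNA-seq and METTL3 replicate 1 in Ribo-seq. Ifit3 has a near-identical copy, Ifit3b, which no library lists, and how reads with several positions were counted is not stated in the labels. Replicate 1 lists from 1 read up, which for Ifit1 would be worth 0.149 to 0.322 in Ribo-seq. The response element core is in the windows of both genes, as in those of Isg15 and Bst2 above.

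B2m (chromosome 2, 122147686 to 122153083, plus strand) encodes the light chain of MHC class I and is the deepest of the 9 genes. Its Ribo-seq level was 2067 and 1831 scaled RPKM in Scram, 1688 and 1004.5 in METTL3 knockdown, 2154 and 1609 in ABCF1 knockdown and 1447 with Torin1. Both METTL3 libraries lay below both Scram libraries, at ratios of 0.82 (0.77 to 0.87) and 0.55 (0.51 to 0.59), and the limma log2 change was -0.58 (SE 0.41, adjusted p = 1), or -0.96 without METTL3 replicate 1 and -0.39 without METTL3 replicate 2. In RNA-seq it had 143.6 and 110.4 in Scram, 133.5 and 70.9 in METTL3 knockdown, 201.1 and 100.9 in ABCF1 knockdown and 102.2 with Torin1. The METTL3 RNA-seq ratios were 0.93 and 0.64, so that the lower Ribo-seq level went with a lower mRNA level in replicate 2, and the TE changes were -0.19 and -0.23. With ABCF1 knockdown the ratio was 1.40 (1.19 to 1.65) in RNA-seq replicate 1 and 0.91 in replicate 2, and in Ribo-seq 1.04 and 0.88. The Torin1 ratio was 0.79 (0.74 to 0.85) in Ribo-seq and 0.93 in RNA-seq. Without scaling the Torin1 Ribo-seq ratio was 0.92 (0.86 to 0.98), and with ABCF1 knockdown that of replicate 1 was 1.14 (1.09 to 1.201) and the RNA-seq ratio of replicate 2 was 0.72 (0.56 to 0.92).

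GGACT, a common form of the site that METTL3 methylates, was counted in the kept transcripts. Irf1 had 5 (2.34 per kb) and Bst2 2 (2.53 per kb), above 93.4% and 95.2% of the transcripts tested in RNA-seq, whose median was 1.05. The Bst2 value rests on 2 matches in 792 bases, a length that differs from the one behind its deposited RNA-seq values. Stat2 had 5, Ifit1 2, and Isg15, Ifit3 and B2m 1 each, while Irf9 and Irf7 had 0. Per kb, Isg15, B2m and Stat2 were above 66.1%, 57.5% and 55.9% of the tested transcripts, and Ifit1 and Ifit3 above 31.7% and 21.5%. The count describes letters, and methylation was not measured here.

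The rest of the pathway was followed in 7 lists of 140 genes: ligands and receptors, kinases and transcription factors, nucleic acid sensors, antiviral effectors, MHC class I and antigen processing, ISG15 conjugation, and negative regulators. Of the 140, 111 were listed in some library and 70, 76 and 76 were tested in RNA-seq, Ribo-seq and TE. By limma 0 of them passed in any of the 9 comparisons. None of the interferon ligand genes in the lists was listed in any library, nor were Mx1, Rsad2 or Usp18, which are strongly induced by interferon in many cells. Other interferon-induced genes were present: Ifitm3 at 161.4 to 473.5 and Ifit2 at 8.99 to 19.1 scaled RPKM over the Ribo-seq libraries, and Cxcl10 at 79.2 to 159.2 in replicate 1, while replicate 2 and Torin1 did not list it.

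With METTL3 knockdown, list genes in Ribo-seq were lower in both replicates for 28 of 76 and higher for 12, against 25.2% and 27.8% of all genes tested. In MHC class I and antigen processing 8 of 16 were lower and 1 was higher, with a median log2 change of -0.39 against 0.02 over all genes. The list medians were -0.21 and -0.30 in replicates 1 and 2. H2-T22 was not listed in replicate 1, where its change is taken as 0. Of the 12 myeloid markers 4 were listed in Ribo-seq (Csf1r, Lyz2, Cd14 and Cd68), with Ptprc, Adgre1 and Itgam in no Ribo-seq library. The summed level of the markers was 6.91 and 26.6 scaled RPKM in Scram and 5.30 and 5.54 in METTL3 knockdown. The replicate 1 sums are Cd14 alone, while those of replicate 2 also hold Csf1r and Cd68, so the replicates sum different genes. Cd14 itself had 6.91 and 12.8 in Scram and 5.30 and 1.81 in METTL3 knockdown. Lyz2 was listed in ABCF1 replicate 1 alone. The part of these markers in the class I values was not tested. H2-K1, a classical class I heavy chain, had 12.8 and 103 scaled RPKM in Scram and 2.83 and 63.2 in METTL3 knockdown. It belongs to a family of near-identical genes, and the value of its kept transcript differed more between replicates than between groups. Canx (0.276 and 460) and Psme1 (11.8 and 305) of the same list had such a gap in Scram Ribo-seq too. Scram Ribo-seq listed 1.19 transcripts per gene in replicate 1 and 1.00 in replicate 2. What this listing adds to the gap was not tested. Jak2, a receptor kinase for interferon gamma, had 14.7 and 7.26 in Scram and 8.98 and 3.40 in METTL3 knockdown in Ribo-seq, and 18.9 and 16.6 against 14.1 and 12.7 in RNA-seq. The Ribo-seq ratios were 0.61 and 0.47 and those of RNA-seq 0.75 and 0.76 (limma adjusted p = 1 for both). Ifi204, a sensor of DNA, had 4.62 and 4.51 in Scram and 1.45 and 1.71 in METTL3 knockdown, on 6 to 35 reads (limma log2 change -1.11, SE 0.33, adjusted p = 1). In RNA-seq 21 of 70 list genes were lower and 16 higher in both replicates, against 26.1% and 25.4% of all genes. There Erap1, which trims peptides for class I, had 8.25 and 6.12 in Scram and 5.82 and 2.72 in METTL3 knockdown, and Psmb10, an immunoproteasome subunit, 8.11 and 13.3 against 4.13 and 8.59. Hmgb2, a DNA-binding chromatin protein, was higher in RNA-seq at 71.1 and 88.2 against 54.4 and 58.7. The Ribo-seq levels of Hmgb2 and Psmb10 moved in opposite directions in the replicates. Hmgb2 had 588 and 755 in Scram and 468 and 938 in METTL3 knockdown. Psmb10 had 98.9 and 73.5 in Scram and 83.0 and 91.7 in METTL3 knockdown. Erap1 was lower in Ribo-seq too, at 11.9 and 12.4 against 17.5 and 14.5 in Scram. Tank, an adaptor of the sensing kinases, had 4.37 and 40.4 in Scram and 2.33 and 12.7 in METTL3 knockdown in Ribo-seq. These values of its kept transcript again had a wide gap between the replicates.

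With ABCF1 knockdown, list genes in Ribo-seq were higher in both replicates for 33 of 76 and lower for 15, against 25.3% and 22.96% of all genes. Antiviral effectors were higher for 10 of 19 and lower for 3 (median 0.24 on the log2 scale, against 0.00 over all genes), and MHC class I and antigen processing for 9 of 16 and 3 (median 0.24). The list medians were 0.41 and 0.04 in replicates 1 and 2 for effectors, and 0.34 and 0.16 for class I. Ifi27, an interferon-stimulated protein of mitochondria, had 4.70 and 6.12 scaled RPKM in Scram and 28.1 and 20.6 in ABCF1 knockdown. The groups did not overlap, the ratios were 5.97 (3.46 to 11.03) and 3.36 (1.96 to 5.98), and the limma log2 change was 1.97 (SE 0.73, unadjusted p = 0.0450, adjusted p = 1). In RNA-seq Ifi27 had 2.29 and 1.79 in Scram and 5.46 in ABCF1 replicate 1, and ABCF1 replicate 2 did not list it. Tnfaip3, an inhibitor of NF-kB signalling, had 8.65 and 8.55 in Scram and 4.45 and 2.74 in ABCF1 knockdown in Ribo-seq. Its RNA-seq level was lower too, at 4.23 and 2.97 against 5.06 and 10.3. In RNA-seq 19 of 70 list genes were higher and 9 lower in both replicates, against 21.8% and 29.0% of all genes. Ddx58, which encodes the RNA sensor RIG-I, had 4.85 and 5.81 in Scram and 8.13 and 9.12 in ABCF1 knockdown in RNA-seq, with ratios of 1.68 (1.11 to 2.55) and 1.57 (1.02 to 2.37). In Ribo-seq Ddx58 had 5.03 and 6.03 in Scram and 6.11 and 6.28 in ABCF1 knockdown. Ifnar2, a chain of the type I receptor, had 13.8 and 11.6 in Scram and 9.99 and 5.63 in ABCF1 knockdown in RNA-seq. Its Ribo-seq level was 54.5 and 36.5 in Scram and 50.8 and 38.8 in ABCF1 knockdown, lower in replicate 1 alone. In RNA-seq Xaf1 and Tyk2 were higher on few reads, Xaf1 at 4.32 and 2.72 against 1.55 and 1.46, and Tyk2 at 3.01 and 3.28 against 1.74 and 1.77. The Ribo-seq level of Xaf1 was 16.9 and 4.50 against 7.17 and 3.50. That of Tyk2 was 2.29 and 1.95 against 2.64 and 1.52, so lower in replicate 1 and higher in replicate 2. Higher on few reads in Ribo-seq was Dtx3l, a ubiquitin ligase, at 4.06 and 2.39 against 1.64 and 1.17. So was Psmb8, an immunoproteasome subunit, at 4.74 and 4.85 against 0.886 and 2.88, from 3 and 10 reads in Scram.

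With Torin1, 27 of 74 tested list genes had a Ribo-seq interval without 1 against Scram replicate 2, 10 of them higher, where 41.5% of all tested genes had one. In RNA-seq it was 7 of 62, against 12.3% of tested genes. In Ribo-seq Tap2, a peptide transporter of class I loading, had 14.3 scaled RPKM with Torin1 and 5.00 in Scram replicate 2 (ratio 2.87, 1.93 to 4.30), while Shisa5 had 24.1 and 64.7 (ratio 0.37, 0.26 to 0.53). Ifit2, an RNA-binding relative of Ifit1, had 17.3 and 8.99 (ratio 1.92, 1.29 to 2.86). In RNA-seq Socs3, an inhibitor of JAK signalling, had 16.8 and 8.70 (ratio 1.93, 1.29 to 2.86). Pias4, Tyk2 and Irf2 had RNA-seq ratios of 1.94, 2.05 and 1.79, and Ptpn6, which was outside the test, a Ribo-seq ratio of 2.22. Against both Scram libraries the limma log2 change of Tap2 was 1.53 (SE 0.46, adjusted p = 0.89).

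The genes most like the members were sought among 6931 tested genes listed in all 14 libraries, by Pearson correlation with the mean of the 5 tested members after the mean of each assay and set was taken off. The highest values were 0.819 for Uvrag, 0.802 for Cd151, 0.798 for Larp7, 0.792 for Ecsit and 0.790 for Tfe3, over 14 libraries that share cells, set and depth. These are the highest of many candidates and are given with no test. Of the members in the mean, Isg15 was not listed in RNA-seq of ABCF1 replicate 2 and Torin1. Stat2 was not listed in RNA-seq of ABCF1 replicate 2. What these unlisted values add to the correlations was not tested.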

How the data were processed

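RNA-seq and Ribo-seq were compared in 14 libraries of mouse embryonic fibroblasts. The deposited values are RPKM per Ensembl transcript, made by the authors with cutadapt, Bowtie and GRCm38 per the submitters' processing notes; those notes give no versions, annotation release, multi-position rule or listing minimum. RPKM times length (coding length in Ribo-seq, transcript length in RNA-seq) gave reads, whole within 0.02 of a read for 94 of 101 member values; the 7 others are the Bst2 RNA-seq values, whose length in the deposited RPKM then differs from GENCODE M21, so that their reads are rounded estimates.

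Of 22453 transcripts, 22356 matched GENCODE M21. Within an assay, RPKM were divided by a factor that equalises the median of tested genes between libraries (0.710 to 1.38 for RNA-seq, 0.852 to 1.26 for Ribo-seq). Genes absent from a file were set to 0. Changes were fitted with limma 3.58.1 (R 4.3.3) on log2(scaled RPKM + 1), which understates changes of low genes, with 3, 3 and 6 residual degrees of freedom in RNA-seq, Ribo-seq and TE. TE is the group by assay interaction over all libraries. The scripts were tested on simulated data.

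Members, lists and motifs were chosen with earlier results of these data known. All members are named, with both knockdown targets. From the lists, up to 4 genes per comparison and assay are named, by the largest smaller change of the same sign in both replicates (for Torin1, the largest change whose interval lacks 1), and 5 genes by likeness. Alternatives were a replicate block, other pseudocounts, filters, scalings and transcript sums, and leaving out each replicate.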

Additional observations from a re-analysis of the deposited data

How the results depend on the processing

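Over all alternatives run, 0 fits of a member reached an adjusted p under 0.05, among 616 limma fits. Of the alternative values of the 21 member changes stated, 235 kept their direction and 9 turned. The B2m change with Torin1 in Ribo-seq was 0.46 under quantile normalization, against -0.43. Leaving out 1 replicate at a time gave -0.556 to 0.0674 for B2m TE with ABCF1 knockdown, -0.62 to 0.22 for Bst2 RNA-seq and -0.598 to 0.0838 for Bst2 TE with ABCF1 knockdown. It gave -0.0309 to 0.873 for Bst2 TE, -0.60 to 0.10 for Irf1 TE and -0.30 to 1.35 for Isg15 Ribo-seq with METTL3 knockdown. The causes were not tested.

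Replicate numbers are shared by Scram and both knockdowns, and deviations from the group means correlated within RNA-seq at 0.817 to 0.880 and within Ribo-seq at 0.910 to 0.939, with only 2 numbers. With the replicate block (Torin1 placed with replicate 2), limma called 1 gene for METTL3 in Ribo-seq, and 10, 126 and 52 for Torin1 in RNA-seq, Ribo-seq and TE, none of them a member. Without the filter on low values 54 genes were called for Torin1 TE. With the block, unadjusted p was under 0.05 for Bst2 (METTL3 RNA-seq 0.0157, ABCF1 Ribo-seq 0.0433), B2m and Irf1 (METTL3 Ribo-seq 0.0382 and 0.0435) and Isg15 (ABCF1 TE 0.0353). The limma SE and adjusted p of these fits were 0.214 and 0.999, 0.206 and 0.628, 0.226 and 0.349, 0.234 and 0.364, and 0.891 and 0.998, in that order. The SE and adjusted p given with each gene above come from the fit without the block. Their spread therefore includes the replicate difference that the groups share.

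Without scaling, the median log2 change of all genes moved by -0.40 (RNA-seq), 0.35 (Ribo-seq) and 0.71 (TE) with Torin1 and by -0.11 (RNA-seq) and 0.14 (TE) with ABCF1 knockdown. Ratios without scaling, chosen after seeing the data, left 14 of 17 member intervals without 1 and added 4. Isg15 had no Torin1 RNA-seq or TE value with unlisted genes as missing. Depth limits Stat2, Irf9, Irf7, Ifit1, Ifit3 and Isg15 RNA-seq, which rest on few reads.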
